A study of Mus musculus with 30 samples.

Results

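Adenosine-producing enzymes and adenosine receptors were described in 30 tumors grown from the E0771 line, with 5 groups of mice and 6 tumors per group. The set holds 5 genes chosen by symbol, and 3 of them, Nt5e, Entpd1 and Ada, are among the 19505 named genes of the array table. The receptor genes Adora2a and Adora2b are not analysed here, nor are Adora1 and Adora3, so the enzymes are described without the receptors. The brightest probe set of a gene was to be kept, which decided nothing because each of the 3 genes had 1 probe set. The genes themselves were chosen with earlier results of these data known, so their p-values below are not free of that choice. The gene identifiers are 23959 for Nt5e (chromosome 9), 12495 for Entpd1 (chromosome 19) and 11486 for Ada (chromosome 2).

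All mice were female C57BL/6NCrl, 8 weeks old on arrival, and every tumor grew from E0771, a mouse mammary carcinoma line, injected into the 4th mammary fat pad 25 weeks after diets were first assigned. CON-LFD mice ate a 10% fat control diet throughout and were never obese, and all others were first made obese on a 60% fat diet for 15 weeks. DIO-HFD mice then stayed on that diet, and DIO-VSG mice underwent vertical sleeve gastrectomy, in which most of the stomach is cut away, followed by the 10% fat diet. DIO-CCR mice were chronically restricted to 30% fewer calories than CON-LFD mice ate. DIO-ICR mice were restricted by 14% on 5 days and by 70% on 2 days of each week. Both restricted groups ate their own restriction diets instead of the 60% fat diet. Fewer calories and the change of diet therefore cannot be told apart against DIO-HFD. The paper also reports smaller tumors in both restricted groups than in every other group, so tumor size cannot be told apart from restriction. All groups other than DIO-VSG had a sham operation. None of the sham groups made obese was moved to the 10% fat diet, so surgery and that diet cannot be told apart in DIO-VSG. The line is a single one, and each tumor came from a mouse with its own number.

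Levels are log2 expression values on which a step of 1 is a doubling, and they ran from 1.48 to 18.57 with array medians between 6.41 and 6.79. No pair of arrays held identical values, and arrays correlated at r of 0.97 to 0.99 across genes. Of 7 epithelial markers, Krt8 averaged 9.67, above 64.9% of genes, while the means of Krt18, Krt19, Epcam, Cdh1, Krt5 and Krt14 lay between 4.13 and 5.15. Lymph node genes stood high in 3 tumors (DIO-HFD 5, DIO-VSG 1 and DIO-VSG 5), and skeletal muscle genes in 4 (CON-LFD 5, DIO-VSG 3, DIO-VSG 4 and DIO-CCR 3). Numbers after group names only name tumors. In whole tumor RNA, fewer cells of a type and less RNA per cell cannot be told apart.

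Extracellular ATP is a danger signal that immune cells sense, and enzymes at the cell surface break it down in steps. Entpd1 (CD39) trims ATP and ADP to AMP, and Nt5e (CD73) cuts AMP to adenosine, which dampens T cells and natural killer cells through the receptors made by Adora2a and Adora2b. Ada, adenosine deaminase, ends the signal by turning adenosine into inosine, while nucleoside transporters carry adenosine across membranes. In many tumors this route is known as a brake on immune attack.

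The bases before the transcription start are shown for Nt5e and for Acpp, prostatic acid phosphatase, because both enzymes cut extracellular AMP to adenosine and each passed the test in a comparison below. The sequences are the 250 bases upstream in RefSeq (build GRCm38.p6), at chr9:88327359-88327608 on the plus strand for Nt5e and chr9:104337723-104337972 on the minus strand for Acpp. Capitals mark GC boxes, searched as GGGCGG and CCGCCC so that both strands were read.
Nt5e: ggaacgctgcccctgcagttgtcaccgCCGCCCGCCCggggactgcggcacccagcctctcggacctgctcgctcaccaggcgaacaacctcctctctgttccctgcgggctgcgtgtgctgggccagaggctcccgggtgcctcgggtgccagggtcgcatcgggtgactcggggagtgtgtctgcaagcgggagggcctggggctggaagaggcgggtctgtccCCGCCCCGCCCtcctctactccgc
Acpp: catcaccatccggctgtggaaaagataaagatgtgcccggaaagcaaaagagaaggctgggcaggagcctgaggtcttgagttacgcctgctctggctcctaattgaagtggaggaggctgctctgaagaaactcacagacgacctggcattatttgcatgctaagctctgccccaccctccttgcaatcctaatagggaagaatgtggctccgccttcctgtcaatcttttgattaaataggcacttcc
The Nt5e window held 4 GC boxes as 2 overlapping pairs, which spanned the bases from 223 to 214 and from 24 to 14 before the start. The Acpp window held none. A GC box occurred in 32.7% of 32851 windows of the same length. Neither window held the hypoxia response core in the form searched, ACGTG or CACGT (16.6% of windows). The form GCGTG was not searched, and the Nt5e bases above hold it. Neither window held the cAMP response half-site TGACG or CGTCA (17.8%). Of the other members, Ada had 1 GC box, and each of the 2 Entpd1 starts had 1 cAMP half-site. These matches describe letters and not bound sites.

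Nt5e was lower in tumors of chronically restricted mice than in tumors of obese mice. In DIO-HFD its level ran from 10.89 to 13.12 with a median of 12.38, and in DIO-CCR from 9.62 to 11.29 with a median of 10.01. Of the DIO-CCR tumors, 5 of 6 lay below every DIO-HFD tumor, and the groups overlapped only through DIO-CCR 6 and DIO-HFD 1. The log2 mean fell by 2.03 ± 0.46 (SE, 6 tumors a group, 95% interval -2.98 to -1.08), a 4.09-fold lower level, with an adjusted p of 0.0465 in limma. Nt5e was the 1 of 3 members that passed in this comparison, against 0.236% of all genes called lower and 0.118% called higher. The call lay close to the threshold. Leaving out any 1 of 10 tumors, namely DIO-CCR 1 to 5 and DIO-HFD 2 to 6, raised the adjusted p to between 0.0648 and 0.131 with differences of -2.11 to -1.86, and without DIO-CCR 6 or DIO-HFD 1 it stayed under 0.05.

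Nt5e in the other groups lay between these levels or close to them. It ran from 11.38 to 12.77 in DIO-VSG with a median of 11.68, and from 9.94 to 12.07 in CON-LFD with a median of 11.11. In DIO-ICR it ran from 8.73 to 12.10 with a median of 10.99. DIO-ICR thus held the tumor with the lowest Nt5e level of all 30 and also tumors within the DIO-HFD range. The means were 12.27 ± 0.82 in DIO-HFD, 11.90 ± 0.55 in DIO-VSG, 11.05 ± 0.90 in CON-LFD, 10.84 ± 1.21 in DIO-ICR and 10.23 ± 0.59 in DIO-CCR (SD, n = 6 each). No step between neighbours in that order passed, with adjusted p in limma of 0.822, 0.587, 0.898 and 0.999 going down.

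**Figure D1:**
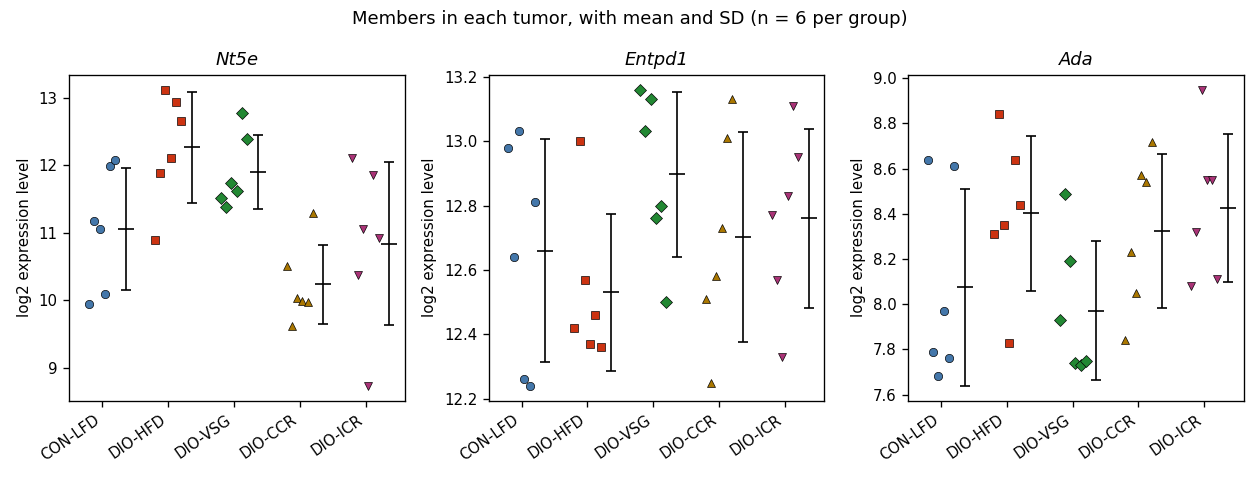
Log2 expression level of Nt5e, Entpd1 and Ada in each of 30 tumors by group, with points as tumors and bars as mean and SD (n = 6). The 6 DIO-CCR tumors ran from 9.62 to 11.29 for Nt5e, below most DIO-HFD tumors, while the groups overlapped for Entpd1 and Ada; the vertical scale differs between panels.

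The comparisons with DIO-HFD share its 6 tumors, so they are not independent. Against DIO-HFD the Nt5e difference was -1.43 ± 0.46 in DIO-ICR (95% interval -2.38 to -0.48, adjusted p = 0.203 in limma). It was -1.21 ± 0.46 in CON-LFD (-2.16 to -0.26, adjusted p = 0.236). In DIO-VSG it was -0.36 ± 0.46 (-1.31 to 0.59, adjusted p = 0.822). None of these passed, and neither did the difference between DIO-CCR and DIO-ICR, -0.61 ± 0.46 (-1.55 to 0.34, adjusted p = 0.999), so the restriction schedules were not shown to differ for Nt5e. DIO-CCR lay below DIO-VSG by 1.67 on the log2 scale in the mean (-1.67 ± 0.46, -2.62 to -0.72, adjusted p = 0.199). The DIO-CCR and DIO-VSG tumors did not overlap, a pattern that 0.236% of all genes shared in that direction, yet the difference did not pass after adjustment. Against CON-LFD the Nt5e difference was -0.82 ± 0.46 in DIO-CCR (-1.77 to 0.13, adjusted p = 0.528), -0.21 ± 0.46 in DIO-ICR (-1.16 to 0.74, adjusted p = 0.898) and 0.85 ± 0.46 in DIO-VSG (-0.10 to 1.80, adjusted p = 0.587). In each of the 9 comparisons other than DIO-CCR against DIO-HFD, 0 of 3 members passed. Against DIO-HFD, the shares of all genes called higher and lower were 0.41% and 0.584% in CON-LFD, 0.103% and 0.0513% in DIO-VSG and 0.292% and 0.169% in DIO-ICR. Against CON-LFD they were 0.0205% and 0.00513% in DIO-VSG, 0.215% and 0.2% in DIO-CCR and 0.836% and 0.738% in DIO-ICR. Against DIO-VSG they were 0.0154% and 0.0359% in DIO-CCR and 0.0103% and 0.0205% in DIO-ICR. Between DIO-CCR and DIO-ICR limma called 0 genes, and 479 genes higher and 449 lower had an unadjusted p under 0.05. Over all 5 groups the limma F-test gave Nt5e an unadjusted p of 0.00095 and an adjusted p of 0.0539, where 1.64% of all genes passed. Nt5e varied more between tumors than most genes, with a SD of 1.09 over the 30 tumors, above 99% of genes.

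Scores of other cell types in DIO-HFD and DIO-CCR are given beside the Nt5e difference. Each cell type score is the mean level of its markers after centring each on the 30 tumors. For 7 of 8 adipocyte markers measured, the score ran from -2.35 to 0.60 in DIO-HFD and from -0.20 to 3.60 in DIO-CCR, and 7 of 7 markers averaged higher in DIO-CCR although 0 passed in limma and 6 had an unadjusted p under 0.05. For 5 of 6 natural killer cell markers it ran from -1.05 to -0.26 and from -0.65 to 0.91, with 1 of 5 markers passing higher and 4 of 5 higher at an unadjusted p under 0.05. The marker that passed was the activating receptor Ncr1 (1.70 ± 0.37, adjusted p = 0.0432). For 7 of 7 neutrophil markers the score ran from -1.75 to 0.20 and from -1.07 to 0.48, and for 6 of 6 mast cell markers from -0.60 to -0.12 and from -0.25 to 0.87. All markers of both lists averaged higher in DIO-CCR, with 0 passing and 3 of each list at an unadjusted p under 0.05. For 7 of 7 endothelial markers it ran from -0.35 to 0.32 and from -0.67 to 0.25, with 0 passing and 1 lower at an unadjusted p under 0.05. For 6 of 7 fibroblast markers it ran from -0.87 to 1.47 and from -0.83 to 1.26, with 0 at either threshold. In the other lists 0 markers passed. Averaging higher in DIO-CCR were 7 of 8 T cell, 3 of 5 regulatory T cell, 6 of 7 macrophage and 4 of 6 dendritic cell markers. So were 1 of 5 B cell, 5 of 7 epithelial, 7 of 8 muscle and 4 of 7 lymph node markers. At an unadjusted p under 0.05, 1 T cell, 2 regulatory T cell and 1 macrophage marker were higher. Dendritic cell and epithelial markers each had 1 higher and 1 lower, the others 0. At an unadjusted p under 0.05, 4.8% of all genes were higher and 7.26% lower in this comparison. Of all 19505 genes, 9044 averaged higher in DIO-CCR. The part of these cell types in the lower Nt5e level was not tested. Without the tumors high in lymph node genes the Nt5e difference was -1.90 (adjusted p = 0.0857), and without those high in muscle genes it was -1.99 (adjusted p = 0.0957).

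Entpd1, the enzyme one step upstream of Nt5e, did not pass in any comparison. It ran from 12.36 to 13 in DIO-HFD (median 12.44) and from 12.50 to 13.16 in DIO-VSG (median 12.92). In CON-LFD it ran from 12.24 to 13.03 (median 12.73), in DIO-CCR from 12.25 to 13.13 (median 12.66) and in DIO-ICR from 12.33 to 13.11 (median 12.80). Every group overlapped every other. DIO-HFD had the lowest mean, 12.53 ± 0.24, and DIO-VSG the highest, 12.90 ± 0.26 (SD, n = 6). The widest gap, DIO-VSG above DIO-HFD, was 0.37 ± 0.17 (95% interval 0.02 to 0.71, adjusted p = 0.447 in limma). Against DIO-HFD the difference was 0.17 ± 0.17 in DIO-CCR (-0.17 to 0.51), 0.23 ± 0.17 in DIO-ICR (-0.11 to 0.57) and 0.13 ± 0.17 in CON-LFD (-0.21 to 0.47). The F-test adjusted p was 0.652. A doubling of Entpd1 lay outside all 10 intervals.

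Ada did not pass in any comparison either. Its level ran from 7.83 to 8.84 in DIO-HFD (median 8.40) and from 7.73 to 8.49 in DIO-VSG (median 7.84). It ran from 7.68 to 8.64 in CON-LFD (median 7.88), from 7.84 to 8.72 in DIO-CCR (median 8.39) and from 8.08 to 8.95 in DIO-ICR (median 8.44). All groups overlapped, and in both DIO-VSG and CON-LFD 4 of 6 tumors lay below 8. The largest differences were DIO-ICR above DIO-VSG by 0.46 ± 0.20 (95% interval 0.05 to 0.86, adjusted p = 0.531 in limma) and DIO-VSG below DIO-HFD (-0.43 ± 0.20, -0.84 to -0.02, adjusted p = 0.452). Against DIO-HFD, DIO-CCR differed by -0.08 ± 0.20 (-0.48 to 0.33) and DIO-ICR by 0.03 ± 0.20 (-0.38 to 0.43), and CON-LFD by -0.33 ± 0.20 (-0.73 to 0.08, adjusted p = 0.558). The F-test adjusted p was 0.442.

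**Figure D2:**
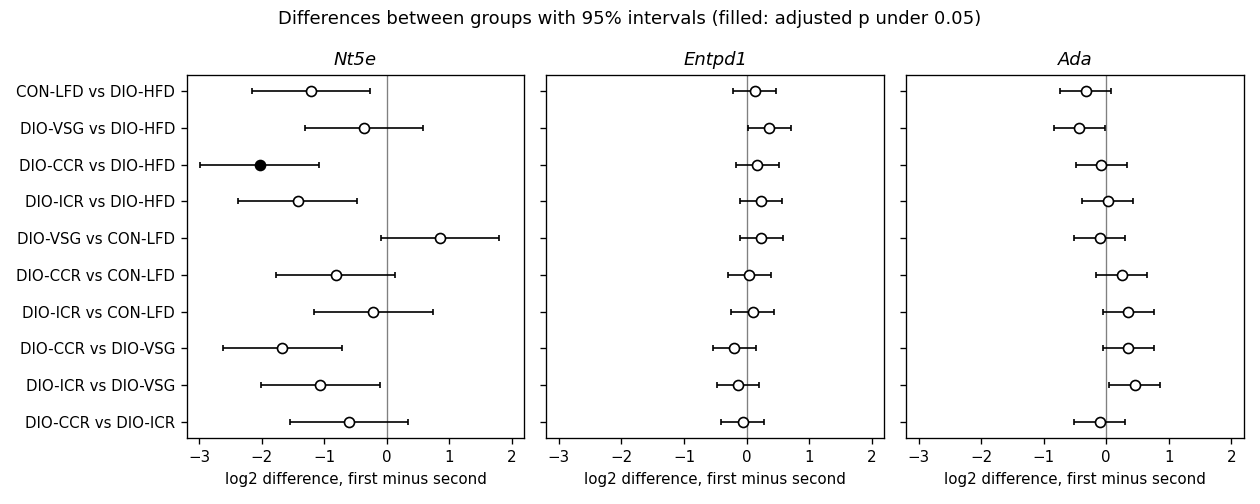
Log2 differences of Nt5e, Entpd1 and Ada between groups, first group minus second, in all 10 comparisons, with 95% intervals from limma (n = 6 per group). The filled point, Nt5e in DIO-CCR against DIO-HFD at -2.03, is the 1 of 30 differences with an adjusted p under 0.05.

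No pair of members was shown to vary together from tumor to tumor. Over 30 tumors Pearson's r was -0.03 between Nt5e and Entpd1 (Spearman's rho -0.06), -0.14 between Nt5e and Ada (rho -0.15) and 0.20 between Entpd1 and Ada (rho 0.18). The permutation p adjusted over the 3 pairs was 0.69 or higher for r and 0.647 or higher for rho. Without the 2 tumors farthest from the median of the first gene r was 0.04, -0.11 and 0.14. With group means removed r was 0.02, -0.11 and 0.40, the last with an adjusted permutation p of 0.0961. That p-value tends to be too small, because the permutation took no account of the removed means.

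Of 42 relations between a member and a cell type score, 0 passed after adjustment and the strongest were with endothelial genes. Ada ran against the endothelial score over 30 tumors (r = -0.53, rho = -0.56, permutation p = 0.00266 for r and 0.0017 for rho, adjusted 0.0974 and 0.0714). Nt5e ran with it (r = 0.50, rho = 0.47, permutation p = 0.00464 and 0.0106, adjusted 0.0974 and 0.149). Without the 2 farthest tumors r was -0.50 for Ada and 0.50 for Nt5e, and with group means removed -0.40 and 0.41. After quantile normalization or median centring the adjusted permutation p of r for Ada was 0.0353 or 0.0386. With group means removed, rho was -0.60 between Nt5e and neutrophil genes (adjusted permutation p = 0.0294) and 0.56 between Entpd1 and macrophage genes (adjusted 0.034). There r was -0.55 and 0.52 (adjusted permutation p = 0.0689 and 0.072). These permutations shuffled values over all 30 tumors although the group means had been taken out. Such p-values tend to be too small, so neither rho is counted as passing. Entpd1 had r = 0.45 with T cell genes and 0.41 with macrophage genes (adjusted permutation p = 0.124 and 0.199).

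The genes whose levels were most like each member were picked from all named genes by Pearson's r, so these values are descriptions over tumors that share groups. Snap47, a SNARE protein, was closest to Nt5e (r = 0.85, rho = 0.86, and r = 0.75 with group means removed). Olfml3, a secreted glycoprotein, followed at r = 0.79 and the choline transporter Slc44a1 at r = 0.78. For Entpd1 the closest were Abcc3, an exporter of organic anions (r = 0.75), Lcp1, the leukocyte actin-bundling protein L-plastin (r = 0.73), and Igsf6 (r = 0.71). For Ada they were Pde1b, a cyclic nucleotide phosphodiesterase (r = 0.70), Rnase2b (r = 0.66) and Gpsm2, which orients the mitotic spindle (r = 0.65). Rnase2b has close paralogs and averaged 3.17, so its separate value is uncertain.

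**Figure D3:**
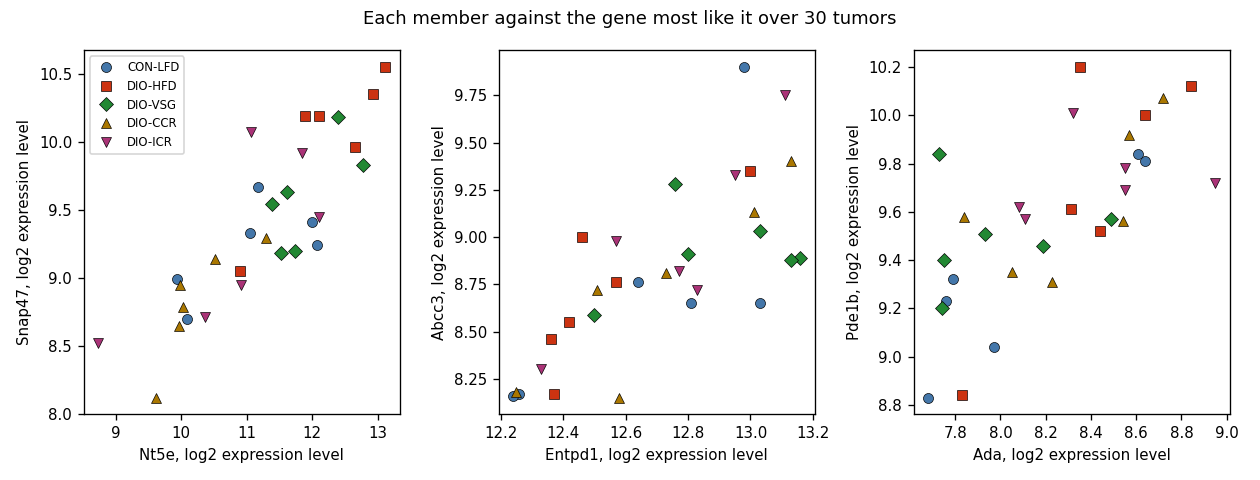
Log2 expression levels over 30 tumors of Nt5e against Snap47, Entpd1 against Abcc3 and Ada against Pde1b, with points as tumors marked by group. The points lay along a rising line at r = 0.85, 0.75 and 0.70, and DIO-CCR tumors lay at the low end of both Nt5e and Snap47.

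A further 60 genes of the pathway were measured out of 68 listed. Against DIO-HFD, 3 of the 60 passed in CON-LFD (2 higher, 1 lower) in limma, where 0.41% of all genes were called higher and 0.584% lower. In DIO-VSG (0.103% higher, 0.0513% lower), DIO-CCR and DIO-ICR (0.292% and 0.169%), 0 of 60 passed. At an unadjusted p under 0.05, 6 of 60 were higher and 5 lower in CON-LFD (4.26% and 7.95% of all genes), 5 and 3 in DIO-VSG (3.9% and 6.47%), 7 and 3 in DIO-CCR (4.8% and 7.26%) and 5 and 2 in DIO-ICR (4.8% and 5.99%). The median difference of the 60 from DIO-HFD was 0.00, -0.04, 0.07 and 0.05 in that order, beside -0.04, -0.05, -0.02 and -0.03 over all genes. Over all 5 groups 7 of 60 passed the F-test, where 1.64% of all genes passed.

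Among the enzymes of extracellular nucleotide breakdown, Acpp had the smallest F-test p. It ran from 10.91 to 13.29 in CON-LFD (median 12.47) and from 8.96 to 10.35 in DIO-HFD (median 9.66). Every CON-LFD tumor lay above every DIO-HFD tumor, as for 0.518% of all genes. Acpp was higher by 2.64 ± 0.43 in CON-LFD, a 6.22-fold difference (adjusted p = 0.00313 in limma). In the same comparison 5 of 7 neutrophil markers passed higher and 1 of 7 epithelial markers lower, with 0 in the other cell type lists. The mean neutrophil score was 1.345 in CON-LFD, 1.28 in DIO-VSG, -0.21 in DIO-CCR, -0.82 in DIO-ICR and -0.95 in DIO-HFD. The part of neutrophils in the Acpp level was not tested. DIO-VSG ran from 9.53 to 11.96 (median 11.45), higher than DIO-HFD by 1.48 ± 0.43 without passing (adjusted p = 0.183). Both restricted groups stayed near DIO-HFD, with means of 10.07 ± 0.77 in DIO-CCR and 9.96 ± 0.84 in DIO-ICR (SD), and both lay below CON-LFD (-2.27 ± 0.43, adjusted p = 0.0183, and -2.38 ± 0.43, adjusted p = 0.00654). In those comparisons 0.2% and 0.738% of all genes were called lower, and the DIO-CCR call was lost without CON-LFD 3 (-2.08, adjusted p = 0.0538) and without the tumors high in muscle genes (-2.06). The F-test adjusted p was 0.00554. Nt5e and Acpp, which make the same product, thus had different group orders, with the DIO-HFD mean highest for Nt5e and lowest for Acpp. Entpd2, another ecto-ATPase, differed by -0.62 ± 0.19 in CON-LFD from DIO-HFD (adjusted p = 0.131), and Enpp3, which splits nucleotides to AMP, by -0.92 ± 0.30 (adjusted p = 0.14).

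Among the genes that remove and carry adenosine, 3 of the 12 other than Ada passed in a comparison or in the F-test. The F-test called 1.64% of all genes. Slc29a1, the equilibrative transporter ENT1, ran from 10.71 to 11.11 in CON-LFD and from 11.33 to 11.70 in DIO-HFD (medians 10.92 and 11.45), with no overlap, as for 1.18% of all genes. The CON-LFD mean was lower (-0.57 ± 0.13, adjusted p = 0.0223 in limma). That call was lost without CON-LFD 3, CON-LFD 4, DIO-HFD 2 or DIO-HFD 5 (adjusted p 0.0516 to 0.0732). Slc28a2, which concentrates purine nucleosides in cells, averaged 9.72 ± 0.29 in DIO-HFD and 9.83 ± 0.36 in CON-LFD but 10.60 ± 0.40 in DIO-CCR, 10.56 ± 0.45 in DIO-ICR and 10.60 ± 0.59 in DIO-VSG (SD). All 3 weight-loss groups thus averaged above both other groups, with single tumors overlapping. Slc28a2 passed the F-test (adjusted p = 0.0383) but no comparison with DIO-HFD (0.89 in DIO-VSG, 0.89 in DIO-CCR and 0.84 in DIO-ICR, adjusted p = 0.142, 0.092 and 0.124). Leaving out any 1 of 12 tumors (CON-LFD 1, 3, 4 or 5, DIO-HFD 3, 4, 5 or 6, DIO-CCR 1 or 4, DIO-ICR 2 or DIO-VSG 5) raised its F-test adjusted p to between 0.0512 and 0.0766, as did median centring (0.0514), and it was 0.054 without the tumors high in muscle genes and 0.0834 without those high in lymph node genes. Slc29a3, the lysosomal transporter ENT3, also passed the F-test (adjusted p = 0.0445), and was higher in DIO-ICR than in CON-LFD by 0.47 ± 0.12 (adjusted p = 0.0482, with 0.836% of all genes called higher). Both Slc29a3 calls were weak, and the F-test call was lost without any 1 of 22 tumors (adjusted p 0.0512 to 0.0963) and held without CON-LFD 1, DIO-HFD 1, DIO-VSG 1 or 2, DIO-CCR 2 or 3, or DIO-ICR 3 or 4. The DIO-ICR call was lost without any 1 of 9 (0.0616 to 0.145) and held without CON-LFD 1, DIO-ICR 3 or DIO-ICR 4, and quantile normalization and median centring ended both calls (F-test 0.0766 and 0.088, DIO-ICR 0.084 and 0.0983).

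**Figure D4:**
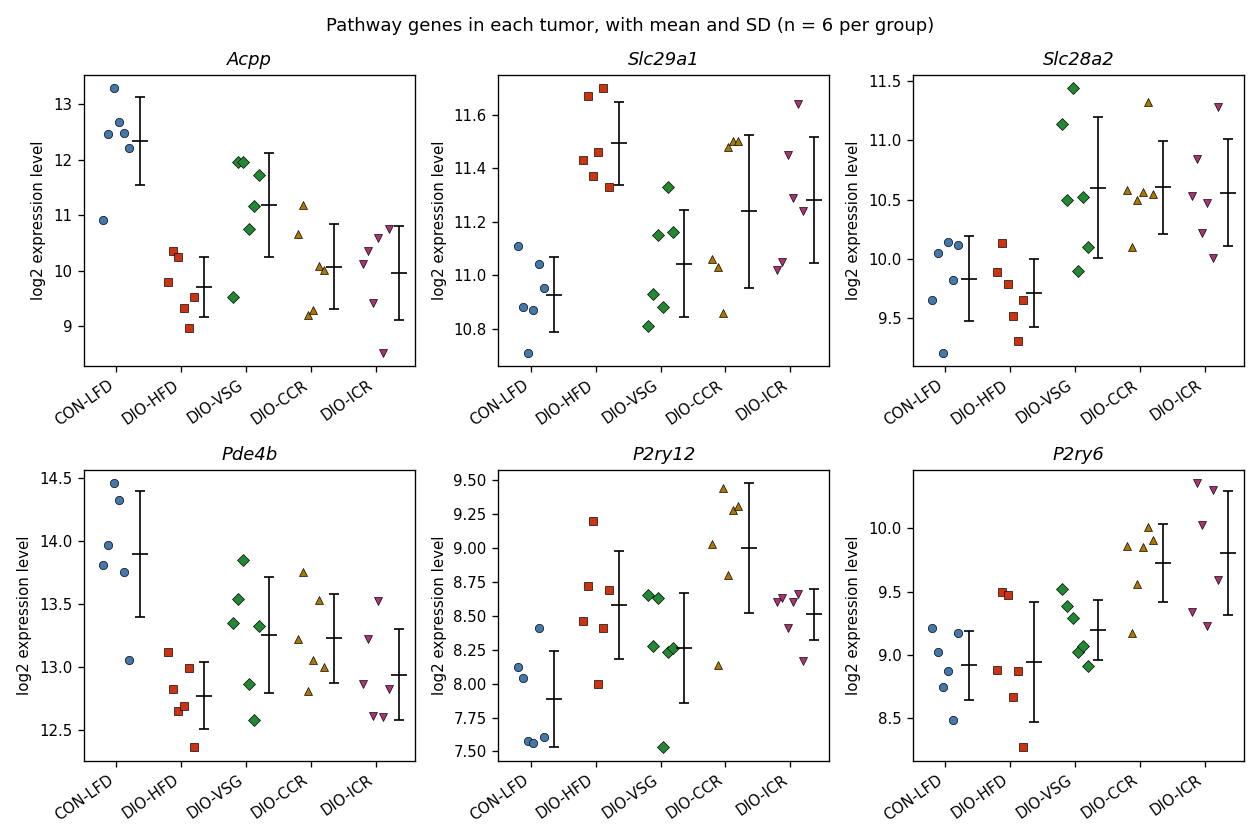
Log2 expression level of Acpp, Slc29a1, Slc28a2, Pde4b, P2ry12 and P2ry6 in each of 30 tumors by group, with points as tumors and bars as mean and SD (n = 6); the vertical scale differs between panels. Acpp ran from 10.91 to 13.29 in CON-LFD and from 8.96 to 10.35 in DIO-HFD.

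Of 10 genes that handle AMP and adenosine inside cells, 0 passed the F-test and 3 had an unadjusted p under 0.05, where 15.3% of all genes did. These were the cytosolic nucleotidases Nt5c3b and Nt5c2 and the AMP deaminase Ampd2. Nt5c3b differed from DIO-HFD by -0.47 ± 0.13 in DIO-CCR (adjusted p = 0.0953 in limma) and by -0.45 ± 0.13 in CON-LFD (adjusted p = 0.0897). Nt5c2 differed by 0.34 ± 0.13 in DIO-CCR (adjusted p = 0.256) and Ampd2 by 0.15 ± 0.12 (adjusted p = 0.663).

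P2 receptors sense nucleotides before they become adenosine. Among 9 genes for ATP release and P2 receptors, P2ry6 and P2ry12 passed the F-test (adjusted p = 0.0213 and 0.0294 in limma). Of all genes, 1.64% did. P2ry6, a receptor for UDP, ran from 8.27 to 9.50 in DIO-HFD (median 8.88), from 9.17 to 10.01 in DIO-CCR (median 9.86) and from 9.23 to 10.36 in DIO-ICR (median 9.81). Its difference from DIO-HFD was 0.78 ± 0.21 in DIO-CCR (adjusted p = 0.088) and 0.87 ± 0.21 in DIO-ICR (adjusted p = 0.0517), just short of the threshold. P2ry6 was higher in DIO-ICR than in CON-LFD by 0.89 ± 0.21 (adjusted p = 0.0258), a call lost without any 1 of CON-LFD 3, 4 or 5 or DIO-ICR 2, 3 or 5 (adjusted p 0.057 to 0.0765). P2ry12, a receptor for ADP, ran from 7.56 to 8.41 in CON-LFD and from 8.14 to 9.44 in DIO-CCR. It was higher in DIO-CCR by 1.11 ± 0.21 (adjusted p = 0.0183, where 0.215% of all genes were called higher), and without CON-LFD 3 or DIO-CCR 5 the adjusted p was 0.0538 or 0.0505. P2ry2, a receptor for ATP and UTP, differed by 0.66 ± 0.21 between CON-LFD and DIO-HFD (adjusted p = 0.139).

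Adenosine A2 receptors raise cAMP, and 9 of 12 listed cAMP-responsive genes were measured. Pde4b, a phosphodiesterase that degrades cAMP, was higher in CON-LFD than in DIO-HFD, where it ran from 13.05 to 14.46 and from 12.36 to 13.12 (medians 13.89 and 12.76). The difference was 1.12 ± 0.22 (adjusted p = 0.00969 in limma), and DIO-ICR lay below CON-LFD (-0.96 ± 0.22, adjusted p = 0.0257), a call lost without any 1 of CON-LFD 2, 3 or 4 or DIO-ICR 3, 5 or 6 (adjusted p 0.0511 to 0.0899). The part of neutrophils in the Pde4b level was not tested either. In DIO-CCR 9 of 9 of these genes averaged above DIO-HFD (median 0.22 beside -0.02 over all genes), but 0 passed and 1 had an unadjusted p under 0.05. In DIO-ICR 4 of 9 averaged above DIO-HFD (median -0.07 beside -0.03). Of all 19505 genes, 9044 averaged above DIO-HFD in DIO-CCR and 8621 in DIO-ICR. Nr4a3, an early response transcription factor, differed from DIO-HFD by 0.69 ± 0.36 in DIO-CCR and 0.94 ± 0.36 in DIO-ICR (adjusted p = 0.453 and 0.314), and the kinase Sik1 by 0.02 ± 0.16 and -0.35 ± 0.16 (adjusted p = 0.981 and 0.452).

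Hypoxia is known to raise Nt5e and Entpd1, so 13 hypoxia-induced genes were set beside them. In DIO-CCR 10 of 13 averaged below DIO-HFD (median -0.12 beside -0.02 over all genes). In DIO-ICR 11 of 13 did (median -0.13 beside -0.03), and 0 passed in either group. Of all 19505 genes, 10428 and 10842 averaged lower in these groups. In DIO-VSG 9 of 13 averaged below (median -0.095 beside -0.05), and 0 passed, where 11641 of all genes averaged lower. In CON-LFD, where Nt5e also averaged below DIO-HFD, 9 of 13 instead averaged above (median 0.055 beside -0.04). Of all genes, 8344 averaged higher in CON-LFD. There 0 passed, with 2 higher and 0 lower at an unadjusted p under 0.05 in limma. The part of hypoxia in the Nt5e level was not tested. Vegfa, the vascular growth factor, differed from DIO-HFD by -0.47 ± 0.17 in DIO-CCR (adjusted p = 0.227 in limma). The peptide hormone gene Adm differed there by 0.42 ± 0.25 (adjusted p = 0.547). Ndrg1 passed the F-test (adjusted p = 0.0367) and was lower in DIO-ICR than in CON-LFD (-0.71 ± 0.14, adjusted p = 0.0104), while its DIO-CCR and DIO-HFD means were 14.63 and 14.57. The Ndrg1 F-test call was lost without any 1 of CON-LFD 2, 3, 4 or 5, DIO-HFD 4, 5 or 6 or DIO-ICR 2, 3 or 5 (adjusted p 0.051 to 0.107) and without the tumors high in muscle genes (0.0874).

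Several calls on pathway genes were lost in an alternative fit. With only the groups compared in the fit, the adjusted p in limma was 0.0559 for Acpp and 0.0676 for P2ry12 between DIO-CCR and CON-LFD. Between DIO-ICR and CON-LFD it was 0.0558 for P2ry6, 0.0586 for Pde4b and 0.0936 for Slc29a3. Without the tumors high in muscle genes P2ry6 had an adjusted p of 0.0632 in the F-test and 0.0852 between DIO-ICR and CON-LFD. The F-test call of P2ry12 was lost without any 1 of CON-LFD 3, 4 or 6 or DIO-CCR 1, 3, 5 or 6 (adjusted p 0.0513 to 0.0736), and that of Pde4b without any 1 of CON-LFD 1, 2, 3 or 4 or DIO-HFD 3, 4 or 6 (0.0504 to 0.091). The Acpp and Pde4b differences between CON-LFD and DIO-HFD passed in every alternative run.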

How the data were processed

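The authors extracted RNA from 30 tumors, hybridized it to Mouse Clariom S arrays and deposited log2 expression values after signal space transformation and robust multichip averaging in the Transcriptome Analysis Console. These values were used as deposited. The genome build of the arrays was not given in the sources used here. No detection p-values were used and arrays have no read depth, so their number limits the precision (median SE of a difference 0.18).

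Of 22206 probe sets, 19572 had 1 gene symbol and 2634 had none. The brightest was kept for 55 symbols with several, which left 19505 genes, all matched to RefSeq by gene identifier. Group means were fitted over all 30 arrays with limma 3.58.1 in R 4.3.3, with empirical Bayes moderation (25 residual and 3.43 prior degrees of freedom). P-values of 10 comparisons and an F-test were adjusted over 19505 genes by Benjamini and Hochberg, and genes under 0.05 passed. Correlations had 100000 permutations, two-sided. Values after ± are SE unless SD is written.

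The members and gene lists were chosen with earlier results of these data known. Named are the members, the 3 genes most like each, in each pathway list the 3 genes with the smallest F-test p, and pathway genes that passed against DIO-HFD. Ndrg1, Vegfa and Adm stand for the hypoxia list by that rule. DIO-CCR against DIO-HFD data were simulated with 200 changed genes among 19505. The fit found 29.1% of log2 changes of 0.5, 76.7% of 1 and 98.2% of 2, with 5.17% of calls false. The changed genes were drawn at random from all genes, whose median SE was 0.18. Nt5e had an SE of 0.46, so these shares do not describe Nt5e. As alternatives, arrays were centred on the median or quantile normalized, the 30% dimmest genes were dropped, all probe sets or only the groups compared were fitted, empirical Bayes was run with trend and robust options, array weights were added, and each array was left out in turn. Tumors were also left out where the score of lymph node genes, or of muscle genes, exceeded that of the median array by 1. Alternatives for the correlations were chosen after seeing the data.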

Additional observations from a re-analysis of the deposited data

Results flagged for a closer look

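In 3 of 105 groups of 6 tumors looked at over 21 named genes, 1 tumor lay far from the others of its group (chance gives about 1 in 20 groups). Entpd1 was 13 in DIO-HFD 2, above the next tumor at 12.57. Adm was 15.46 in DIO-CCR 3, a tumor with high muscle genes, above the next at 14.48. Sik1 was 11.06 in CON-LFD 6, below the next at 11.67.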

How the results depend on the processing

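The lower Nt5e level in DIO-CCR than in DIO-HFD kept its direction under every alternative run, but the number of members passing fell from 1 to 0 in 5 of them: only the groups compared (-2.03, adjusted p = 0.0624), quantile normalization (-1.998, 0.0573), trend and robust empirical Bayes (-2.03, 0.0532), and without the tumors with lymph node genes (-1.90, 0.0857) or muscle genes (-1.99, 0.0957). Leaving out 1 array gave -2.31 to -1.86 (adjusted p 0.0259 to 0.131) and 0 to 1 members passing. The Nt5e F-test passed (1 member) with array weights (0.0363), median centring (0.0496) and without the 30% dimmest genes (0.0402), and ranged from 0.0285 to 0.103 with 1 array left out (0 to 1 members). Differences near 0 changed sign. Ada in DIO-ICR against DIO-HFD was -0.025 after median centring, and Entpd1 in DIO-CCR against CON-LFD was -0.0117 after median centring and -0.018 without tumors with muscle genes. With 1 array left out, Ada ranged from -0.19 to 0.0203 (DIO-CCR against DIO-HFD), -0.18 to 0.003 (DIO-CCR against DIO-ICR), -0.0893 to 0.11 (DIO-ICR against DIO-HFD) and -0.21 to 0.0097 (DIO-VSG against CON-LFD), Entpd1 from -0.044 to 0.13 (DIO-CCR against CON-LFD) and -0.14 to 0.032 (DIO-CCR against DIO-ICR), and Nt5e from -0.47 to 0.21 (DIO-ICR against CON-LFD). Pearson's r of Nt5e and Entpd1 was 0.0164 with group means removed and 0.0364 without the 2 farthest tumors. Pathway genes passing between CON-LFD and DIO-HFD were 5 instead of 3 with array weights, only the groups compared or trend and robust empirical Bayes. Between DIO-ICR and DIO-HFD they were 2 instead of 0 with array weights and 1 with quantile normalization, trend and robust empirical Bayes or without the 30% dimmest genes. In the F-test they were 3 instead of 7 without tumors with muscle genes. With 1 array left out these counts were 2 to 4, 0 to 1 and 2 to 7, and 0 to 1 in DIO-VSG against DIO-HFD. The causes were not tested. All other differences and F-tests of members kept their direction and side of the threshold. The adjusted permutation p of r between Ada and the endothelial score was 0.0353 with quantile normalization and 0.0386 with median centring instead of 0.0974. No paired analysis was possible because the labels give each mouse its own number, which no other group shares. The deposited values hold no measure of signal over background.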
